A study of Arabidopsis thaliana with 12 samples.

Results

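The chloroplast NDH complex was followed through 10 of its genes in Arabidopsis thaliana seedlings, 1 of them nuclear (NdhU, AT5G21430) and 9 encoded in the plastid genome (ndhA, ndhC, ndhD, ndhE, ndhG, ndhH, ndhI, ndhJ and ndhK). Each of the 10 has a probe set paired with it and with no other gene, as do all of the 16550 genes tested. The set was chosen by the log2 values of NdhU and ndhJ in an earlier look at the same arrays, in which both stood out for their lincomycin difference. The values of the 10 genes in every comparison that uses a lincomycin array are therefore given as a description, without a p-value. Of the other plastid ndh genes, ndhF also has a probe set of its own and is described as a neighbour, while ndhB is present as duplicate copies that share their probe sets and is given no value.

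The NDH complex sits in the thylakoid membrane and passes electrons from ferredoxin to plastoquinone, one of the routes of cyclic electron flow around photosystem I. It is built from both genomes: the plastid ndh genes encode a membrane arm and part of a stromal arm related to bacterial complex I, and nuclear genes add subunits found in chloroplasts, among them the parts that bind ferredoxin. Its plastid transcripts need editing and processing by nuclear-encoded RNA-binding proteins before they are translated.

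The arrays held 4 groups of 3 whole-seedling samples, each described as a separate biological replicate: the mutant gun1-101 with 0.5 mM lincomycin, gun1-101 without it, the wild type Col-0 with 0.5 mM lincomycin and Col-0 without it. Lincomycin blocks translation in plastids, and GUN1, a chloroplast pentatricopeptide repeat protein, acts in signalling to the nucleus, so the comparison asks how both gene sets of 1 complex respond when plastid translation is stopped, with and without GUN1. All seedlings were 7 days old, stratified for 2 days at 4 °C, with 5 days of darkness followed by 2 days of light. The sample records also give 8 light hours, and the drug was in the plate from sowing. The labels name 1 mutant allele and do not say how many seedlings went into a sample; GUN1 itself is not analysed here.

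Values are the authors' log2 expression values, on which 1 unit is a factor of 2. Array medians lay between 6.59 and 6.70, and no arrays were identical. In Col-0, control replicate 1 was the control array that correlated least with the other controls (0.9786). Lincomycin replicate 3 was the lincomycin array that correlated least with its group (0.9855), though control replicates 2 and 3 stood no higher (0.9845 and 0.9851). Results that turn on control replicate 1 and lincomycin replicate 3 are given without them as well. These arrays were picked on the same values, and their removal tends to lower the spread within groups. The p-values given without them are therefore a description. The number of arrays limits the precision. In whole seedlings, fewer cells of a type and less RNA per cell cannot be told apart. The 9 plastid ndh probe sets were bright, between the 76.3 and 99.9 percentiles of the genes on an array, and whether differences are compressed near the top of the scale was not tested. Levels of different probe sets are not comparable, so only differences between groups are set side by side.

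NdhU, a J-like protein of the stromal side of the complex, was lower with lincomycin in Col-0 and stood near its control level in gun1-101. Its log2 level was 9.87, 9.71 and 9.93 in gun1-101 with lincomycin and 9.76, 9.81 and 9.77 in gun1-101 without it. In Col-0 it was 5.61, 5.93 and 6.52 with lincomycin, against 9.97, 10.34 and 10.25 without it. The 3 Col-0 lincomycin arrays lay below all other 9, by more than 3 log2 units, whereas the lincomycin and control arrays of gun1-101 overlapped.

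With lincomycin, NdhU averaged 6.02 ± 0.46 in Col-0, against 10.19 ± 0.19 in the Col-0 controls (SD, n = 3 each), a log2 difference of -4.16 (SE 0.20, 95% interval -4.59 to -3.73) or 17.9-fold lower. In gun1-101 it averaged 9.83 ± 0.12 with lincomycin and 9.78 ± 0.02 without (SD, n = 3 each), a difference of 0.06 (SE 0.20, interval -0.37 to 0.49). That interval leaves room for a shift of either sign of up to about 0.49, far short of the one in Col-0. Between the lincomycin groups, NdhU was higher in gun1-101 by 3.81 (SE 0.20), a 14.1-fold difference, and the interaction, the gun1-101 response minus the Col-0 response, was 4.22 (SE 0.28, interval 3.61 to 4.83).

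Ordered by group mean, NdhU was highest in the Col-0 controls, then in gun1-101 with lincomycin, the gun1-101 controls and Col-0 with lincomycin. The neighbours in the middle of that order overlapped, and the gap above them was small, the lowest Col-0 control standing at 9.97 and the highest gun1-101 lincomycin array at 9.93. In Col-0 with lincomycin the NdhU probe set ranked as low as the 39.4 percentile of its array, and how far background limits its lowest values was not tested.

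Shoot marker genes were low in the same arrays as NdhU. Of 5 shoot markers 4 were measured (RCA, PRK, LHCB1.5 and LHCB4.2), and all 4 fell in Col-0, by 0.88 to 4.36, while in gun1-101 PRK fell 2.15-fold and the other 3 were not called. Their mean log2 level per array was 10.31 to 10.57 in gun1-101 with lincomycin, 10.94 to 11.003 in the gun1-101 controls, 7.87 to 8.53 in lincomycin-grown Col-0 and 11.13 to 11.17 in the Col-0 controls. Of 5 root markers 1 was measured, EXPA7, which was not called in any comparison (limma adjusted p = 0.936 in Col-0 and 0.281 in gun1-101). The shoot markers are photosynthesis genes whose own expression may change, and LHCB4.2 was among the genes most correlated with NdhU (Pearson's r = 0.992). They cannot tell a changed share of shoot tissue from lower expression per cell. The part of a changed share of shoot tissue in the NdhU values was not tested.

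**Figure D1:**
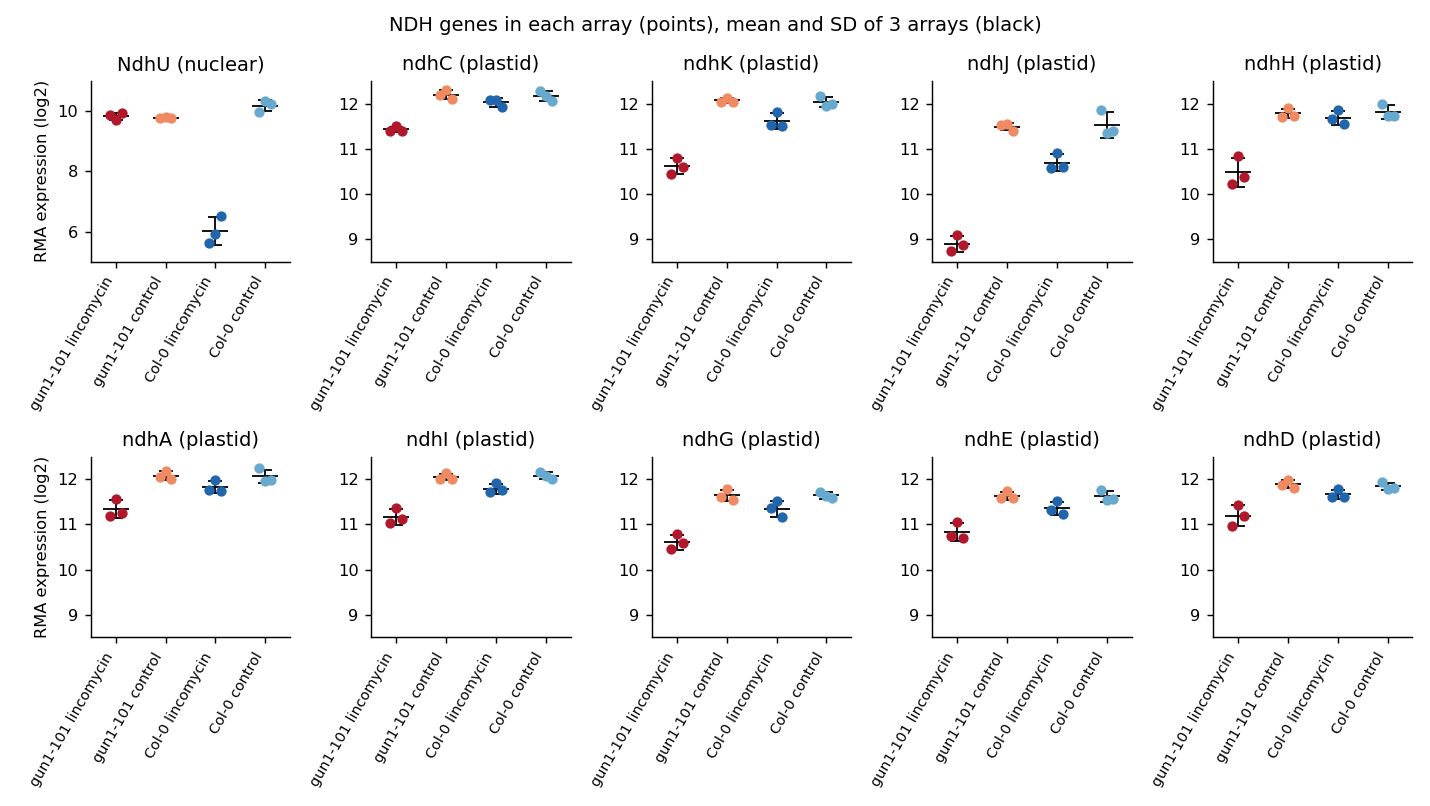
Log2 expression (RMA) of the 10 NDH genes in each of the 12 arrays; each point is an array, the black bar is the mean and the whiskers are the SD of 3 arrays. NdhU is low in the 3 Col-0 lincomycin arrays (5.61 to 6.52), while each plastid ndh gene is lowest in the 3 gun1-101 lincomycin arrays; NdhU has its own axis range and the 9 plastid panels share one.

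The plastid genes had the opposite arrangement: all 9 were lowest in gun1-101 with lincomycin. There each of the 9 had its 3 lincomycin arrays below its 3 controls, with log2 differences between -2.60 and -0.69 and a median of -0.88, beside a median of -0.06 over all genes tested. All 9 passed the threshold of limma's test (Benjamini-Hochberg adjusted p under 0.05), as did 9.51% of all genes in that direction and 10.9% in the other, and 24.2% of all genes had lincomycin arrays wholly below the controls, against 21.7% wholly above; since the members were chosen with this comparison in view, nothing is read from the count. In Col-0 the same 9 genes differed by -0.83 to -0.13, with a median of -0.26 beside 0.02 over all genes. There 1 of 9, ndhJ, passed the threshold, 2 without Col-0 lincomycin replicate 2 (7.19% of all genes were called lower and 7.15% higher), and 6 of 9 did not overlap (12.6% of all genes lay wholly below and 14.8% wholly above). With lincomycin, all 9 were lower in gun1-101 than in Col-0, with a median of -0.62, no overlap in any of them, and all 9 past the threshold (4.45% of all genes were called lower and 5.12% higher, while 17.6% lay wholly below and 12.9% wholly above). Between the lincomycin groups, ndhA and ndhD each passed the threshold in 9 of 22 alternatives and ndhE in 16 of 22. Nothing is read from these counts either.

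Set against the plastid genes, the NdhU difference minus their median was -3.90 in Col-0 and 0.94 in gun1-101. It was 4.44 between the lincomycin groups and 4.84 in the interaction, where the 9 plastid interaction terms ran from -1.76 to -0.50 with a median of -0.62. Of these, 5 were lower and past the threshold (ndhC, ndhK, ndhJ, ndhH and ndhG), where 2.95% of all genes were called lower and 4.01% higher, the direction of NdhU. As the members were chosen on lincomycin differences that enter this term, the count is a description and nothing is read from it. It rested on particular arrays: it was 2 without Col-0 lincomycin replicate 2, 3 without any 1 of Col-0 control replicates 2 and 3, Col-0 lincomycin replicate 1, the 3 gun1-101 controls and gun1-101 lincomycin replicates 1 and 3, and 9 without both control replicate 1 and lincomycin replicate 3 of Col-0.

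**Figure D2:**
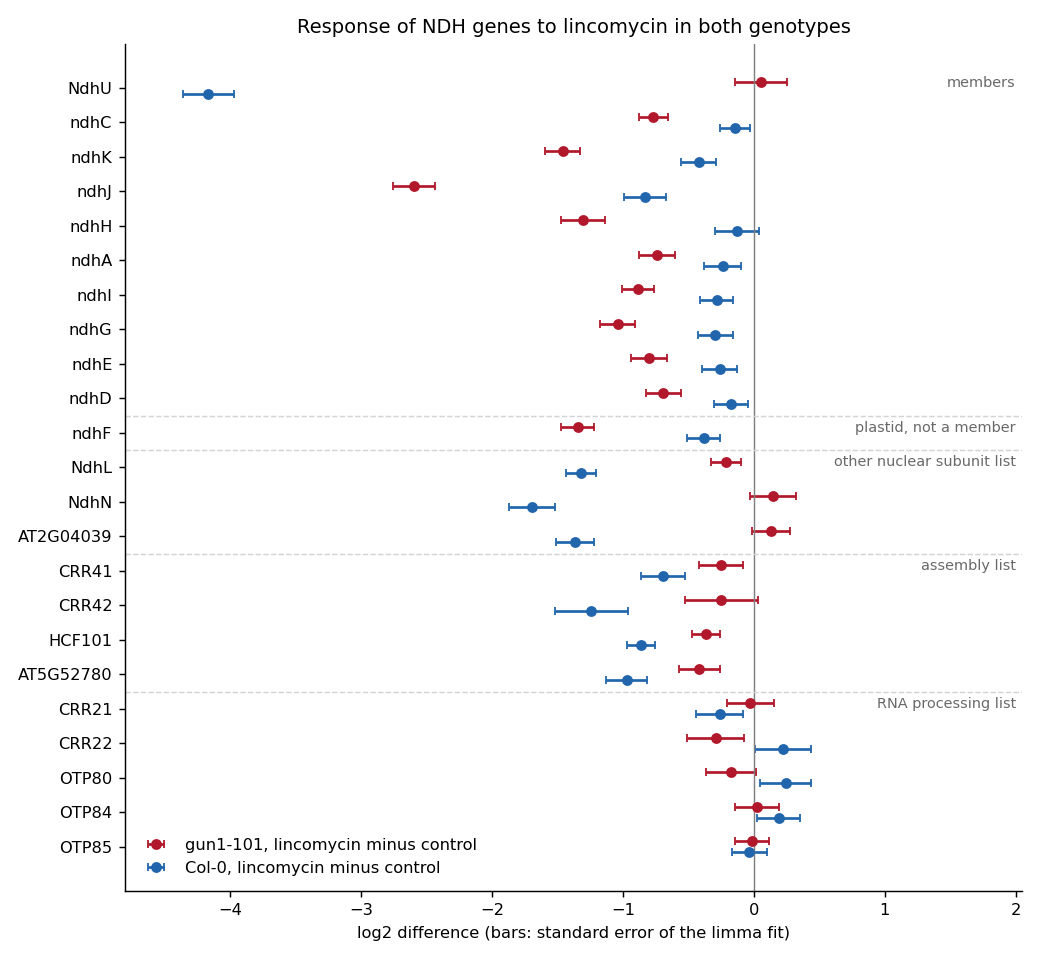
Log2 difference between lincomycin and control arrays for NDH-related genes, with gun1-101 (red) above Col-0 (blue) in each row; points are limma estimates from 3 against 3 arrays and bars are standard errors. NdhU and the other nuclear subunit genes lie left of 0 in Col-0, from -4.16 to -1.32, and near 0 in gun1-101, while the plastid ndh genes lie farther left in gun1-101 than in Col-0.

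The largest difference among the plastid members was that of ndhJ, a gene of the stromal arm. NdhJ, NdhK, NdhH and NdhI form the part of the complex that carries electrons towards the membrane, NdhI and NdhK being the iron-sulphur subunits of it. The level of ndhJ was 8.73, 9.09 and 8.86 in gun1-101 with lincomycin and 11.53, 11.54 and 11.40 in its controls. In Col-0 it was 10.57, 10.91 and 10.60 with lincomycin, against 11.85, 11.34 and 11.39 without. No lincomycin array of either genotype reached the controls, and every gun1-101 lincomycin array lay below every Col-0 lincomycin array. The ndhJ difference was -2.60 in gun1-101 (SE 0.16, interval -2.95 to -2.24, 6.05-fold lower) and -0.83 in Col-0 (SE 0.16, interval -1.18 to -0.48, 1.78-fold lower), and the interaction was -1.76 (SE 0.23). Leaving out control replicate 1, the highest of the ndhJ controls, and lincomycin replicate 3, the Col-0 difference was -0.63.

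The ndhK level was 10.45, 10.79 and 10.60 in gun1-101 with lincomycin, against 12.04, 12.13 and 12.04 without. Col-0 had 11.53, 11.81 and 11.50 with lincomycin, against 12.17, 11.95 and 11.99 without. The groups did not overlap in either genotype, although the Col-0 gap was narrow. The difference was -1.46 in gun1-101 (SE 0.13, 2.75-fold lower) and -0.42 in Col-0 (SE 0.13).

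For ndhH the values were 10.21, 10.84 and 10.37 in gun1-101 with lincomycin, against 11.71, 11.90 and 11.73 without. In Col-0 they were 11.67, 11.85 and 11.54 with lincomycin, against 11.995, 11.72 and 11.73 without. Here the Col-0 groups overlapped and the gun1-101 groups did not. The ndhH difference was -1.31 in gun1-101 (SE 0.17, 2.47-fold lower) and -0.13 in Col-0 (SE 0.17, interval -0.50 to 0.23), where the sign turned in 2 of 22 alternatives; it was 0.03 without both control replicate 1 and lincomycin replicate 3 of Col-0. The other gene of the stromal arm, ndhI, differed by -0.88 in gun1-101 (SE 0.12) and by -0.28 in Col-0 (SE 0.12), its groups apart in both.

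The membrane-arm genes ndhA, ndhC, ndhD, ndhE and ndhG differed by -1.04 to -0.69 in gun1-101 and by less in Col-0. The ndhC level was 11.39, 11.50 and 11.40 in gun1-101 with lincomycin, against 12.18, 12.31 and 12.10 without, and in Col-0 it was 12.08, 12.08 and 11.92 with lincomycin, against 12.28, 12.17 and 12.06 without. The Col-0 groups of ndhC overlapped, as did those of ndhA. In gun1-101, ndhG differed by -1.04 (SE 0.13), ndhE by -0.80 (SE 0.13), ndhC by -0.77 (SE 0.11), ndhA by -0.74 (SE 0.14) and ndhD by -0.69 (SE 0.13). In Col-0 these 5 genes lay between -0.30 (ndhG) and -0.15 (ndhC), with intervals that took in 0 for all but ndhG, whose upper bound was -0.005. Between the lincomycin groups the smallest differences of the 9 were also here, ndhD at -0.47 and ndhA at -0.49 (SE 0.13 and 0.14).

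Ordered by group mean, both control groups stood at the top for each of the 9 plastid genes, and they overlapped in every case. Col-0 with lincomycin came next and gun1-101 with lincomycin last, with no overlap between these in any of the 9. Whether Col-0 with lincomycin stood apart from the control group above it varied: the arrays overlapped for ndhC, ndhH and ndhA, and did not for ndhK, ndhJ, ndhI, ndhG, ndhE and ndhD, the last by less than the 2 decimals shown (11.79 in both).

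Without lincomycin, the comparison of gun1-101 with Col-0 had not itself chosen the members and was tested. Its control arrays did enter the lincomycin differences that chose them, so its p-values are not independent of that choice. None of the 10 genes was called by limma, and 0 had an unadjusted p under 0.05, where 0.00604% of all genes were called lower and 0.0121% higher. The 9 plastid genes differed by -0.04 to 0.05 with a median of 0.009, beside 0.02 over all genes, and adjusted p-values from 0.896 (ndhD) to 0.996 (ndhG). Their standard errors were 0.11 to 0.17, and the widest interval was that of ndhH, -0.40 to 0.33. NdhU was lower in all 3 gun1-101 controls than in any Col-0 control, 7.16% of all genes being wholly lower and 8.18% wholly higher, with a difference of -0.41 (SE 0.20, interval -0.84 to 0.02, adjusted p = 0.406). Its adjusted p was 0.0215, at a difference of -0.52, without both control replicate 1 and lincomycin replicate 3 of Col-0, where 2854 genes were called in place of 3.

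The plastid ndh genes lie in groups that are transcribed together, and the size of the difference followed the order in the first of them. In the RefSeq gene table (TAIR10.1), ndhC, ndhK and ndhJ are next to each other with no gene between, and ndhC is the first to be transcribed. Along ndhC, ndhK and ndhJ the difference in gun1-101 was -0.77, -1.46 and -2.60, and in Col-0 -0.15, -0.42 and -0.83. Each step in gun1-101 was larger than the standard errors of the genes on both sides (0.11, 0.13 and 0.16), and the difference between neighbouring genes was not tested. The order was seen after the values were known, and whether compression near the top of the scale had a part in it was not tested.

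In the small single-copy region the differences did not run in a single direction. From rps15 through ndhH, ndhA, ndhI, ndhG, ndhE, psaC, ndhD, ccsA, rpl32 and ndhF, the gun1-101 difference was -0.80, -1.31, -0.74, -0.88, -1.04, -0.80, -0.56, -0.69, -1.12, -1.25 and -1.35. Within it, shorter stretches did step downwards, over ndhA, ndhI and ndhG (-0.24, -0.28 and -0.30 in Col-0) and over psaC, ndhD, ccsA, rpl32 and ndhF. The Col-0 steps over ndhA, ndhI and ndhG were smaller than the standard errors of these genes. The genes ndhA, ndhI and ndhG are listed in the ndhH to ndhD group, taken as transcribed together. In the longer stretch ccsA and rpl32 are listed only as neighbours of that group. Whether the whole longer stretch is transcribed together was not examined. In gun1-101 the lowest value in the ndhH to ndhD group was at ndhH, its first gene. The one nearest 0 was at psaC, the iron-sulphur subunit gene of photosystem I that lies between ndhE and ndhD. In Col-0 the lowest was at ndhG (-0.30) and the one nearest 0 at ndhH (-0.13). PsaC fell in gun1-101 (adjusted p = 0.00587), a call that ended after quantile normalisation of the tested genes (adjusted p = 0.102), and was at -0.14 in Col-0 (adjusted p = 0.45).

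**Figure D3:**
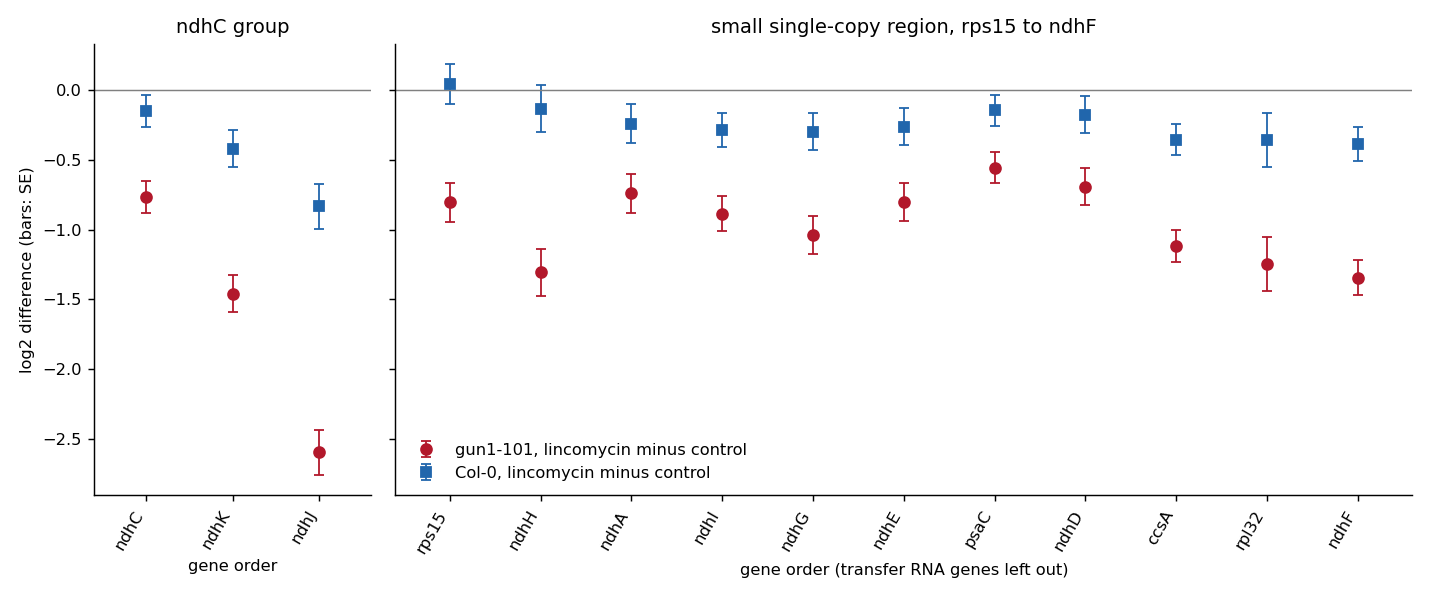
Log2 difference between lincomycin and control arrays along the plastid gene order, gun1-101 as red circles and Col-0 as blue squares, bars giving the standard error. In the left panel the gun1-101 values step from ndhC (-0.77) to ndhK (-1.46) and ndhJ (-2.60); in the right panel they vary without a single direction between rps15 and ndhF.

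The neighbour ndhF, a large membrane subunit gene at the other end of this region, is no member and was tested. Its level was 10.52, 10.84 and 10.64 in gun1-101 with lincomycin and 11.98, 12.08 and 11.97 in its controls. Col-0 had 11.61, 11.70 and 11.51 with lincomycin, against 12.14, 11.90 and 11.93 without. All lincomycin arrays lay below the controls of their genotype. It fell by 1.35 in gun1-101 (SE 0.12, adjusted p = 8.41e-05), and the difference in Col-0 was -0.38 (SE 0.12, adjusted p = 0.0591), called in 2 of 22 alternatives. The interaction of -0.96 (SE 0.18) was called (limma adjusted p = 0.0104, and 0.000646 to 0.0351 over 21 alternatives), and without lincomycin the genotypes differed by 0.02 (adjusted p = 0.949).

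The 5 other measured neighbours of the ndh groups all fell in gun1-101, by 0.68 to 1.25 and a median of 0.80, and none was called in Col-0 by limma (1 had an unadjusted p under 0.05). They were ccsA, for cytochrome c synthesis, the ribosomal protein genes rpl32, rps15 and rps4, and ycf3, for photosystem I assembly. The interaction was called for ccsA (-0.76, SE 0.16, adjusted p = 0.0198) and rps15 (-0.85, SE 0.20, adjusted p = 0.0303). Leaving out both control replicate 1 and lincomycin replicate 3 of Col-0, it was also called for rpl32 (-1.17, adjusted p = 0.00696), ycf3 (-0.58, adjusted p = 0.0251) and psaC (-0.48, adjusted p = 0.0403). The ccsA and rps15 calls both ended with the array background as a covariate (0.0516 for ccsA and 0.0891 for rps15). The ccsA call also ended without control replicate 2 or 3 of Col-0, Col-0 lincomycin replicate 2, gun1-101 control replicate 2 or gun1-101 lincomycin replicate 3 (0.0521 to 0.0622). That of rps15 ended without any 1 of 9 arrays (0.0556 to 0.0818) and held without control replicate 1 or lincomycin replicate 3 of Col-0 or gun1-101 lincomycin replicate 2.

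The decrease in gun1-101 was shared by the plastid genome. Of the 54 other plastid genes measured, 50 were called lower there by limma, against 9.51% of all genes. The median of the 54 was -0.70, against -0.88 for the 9 ndh genes. All 54 had lincomycin arrays below the controls, as did 24.2% of all genes. In Col-0, 3 of the 54 were called lower (7.19% of all genes), with a median of -0.17. There 48 of the 54 differences were negative, and 17 genes lay wholly below the controls (12.6% of all genes). In Col-0, 13 of the 54 had an unadjusted p under 0.05 by limma. The 29 photosynthesis genes outside NDH had a gun1-101 median of -0.72 with 27 called lower. The 17 ribosomal protein and polymerase genes had one of -0.66 with 16 called lower. ndhJ was the lowest of all 63 plastid genes in gun1-101, before rps14 (-2.21), psbM (-2.10) and petL (-2.06), and rpl20 (-0.18) was nearest 0. Between the untreated genotypes the 54 differed by -0.07 to 0.11 and none was called by limma (0 had an unadjusted p under 0.05).

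**Figure D4:**
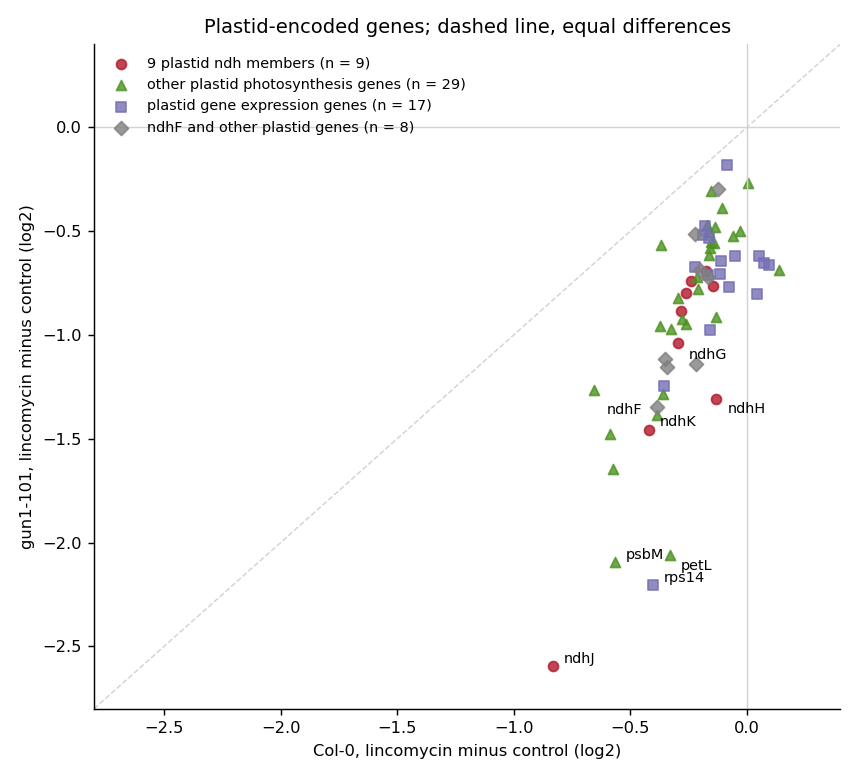
Log2 difference between lincomycin and control arrays for 63 plastid genes, Col-0 on the horizontal axis and gun1-101 on the vertical axis, 1 point per gene; the dashed line marks equal differences. Every point lies below the line, and ndhJ is the lowest point on both axes (-0.83 in Col-0, -2.60 in gun1-101).

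Of 19 other nuclear genes listed as NDH subunits, 3 had a probe set of their own. They are no members and were tested, although the list was written with earlier results of these arrays known. All 3 fell in Col-0 and none was called in gun1-101, where 0 had an unadjusted p under 0.05. They are NdhL, a membrane subunit, NdhN, a subunit of the stromal arm, and the locus AT2G04039, which the gene table leaves unnamed and which stands in the list from background knowledge.

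NdhN was at 10.28, 9.95 and 10.22 in gun1-101 with lincomycin and at 9.98, 10.08 and 9.95 in its controls. In Col-0 it was at 8.57, 8.55 and 9.03 with lincomycin, against 10.07, 10.59 and 10.58 without. As with NdhU, the 3 Col-0 lincomycin arrays lay below the other 9. NdhN fell by 1.70 in Col-0 (SE 0.18, adjusted p = 7.39e-05), differed by 0.15 in gun1-101 (adjusted p = 0.582), and its interaction was 1.84 (SE 0.25, adjusted p = 0.00199).

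NdhL was at 10.94, 11.12 and 11.04 in gun1-101 with lincomycin and at 11.23, 11.27 and 11.23 in its controls. Col-0 stood at 9.94, 10.02 and 10.20 with lincomycin, against 11.24, 11.45 and 11.43 without. The gun1-101 groups did not overlap, but by a small margin. NdhL fell by 1.32 in Col-0 (SE 0.12, adjusted p = 1.71e-05), differed by -0.21 in gun1-101 (SE 0.12, adjusted p = 0.21), and had an interaction of 1.11 (SE 0.16, adjusted p = 0.0034).

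AT2G04039 was at 9.07, 8.94 and 9.10 in gun1-101 with lincomycin and at 8.95, 8.93 and 8.86 in its controls. In Col-0 it was at 7.85, 7.78 and 8.10 with lincomycin, against 8.99, 9.51 and 9.33 without. Again only the Col-0 lincomycin arrays stood low. It fell by 1.36 in Col-0 (SE 0.15, adjusted p = 8.61e-05), differed by 0.13 in gun1-101 (adjusted p = 0.553), and had an interaction of 1.49 (SE 0.21, adjusted p = 0.00207). The Col-0 and interaction calls of all 3 genes held in every alternative setting run, and their differences in Col-0, between -1.70 and -1.32, were smaller than that of NdhU. Without lincomycin none was called between genotypes, though 2 of 3 had an unadjusted p under 0.05; leaving out both control replicate 1 and lincomycin replicate 3 of Col-0, NdhN had an adjusted p of 0.0121 at -0.58 and AT2G04039 one of 0.0127 at -0.51.

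Of 9 genes listed for NDH assembly 4 were measured, and all 4 fell in Col-0. CRR42 fell by 1.24 (SE 0.28, adjusted p = 0.0117) and CRR41 by 0.69 (SE 0.17, adjusted p = 0.0175), both factors in the assembly of the stromal arm. HCF101, an iron-sulphur carrier best known for photosystem I, fell by 0.86 (SE 0.11, adjusted p = 0.000284), and the locus AT5G52780, unnamed in the gene table, fell by 0.97 (SE 0.16, adjusted p = 0.00171). The CRR41 call was lost on leaving out control replicate 2 (adjusted p = 0.0746) or 3 (0.0538) of Col-0 and in a fit to the Col-0 arrays alone (0.0589), and that of CRR42 on leaving out control replicate 2 (0.0525) and in the same 6-array fit (0.0551). In gun1-101, HCF101 fell by 0.37 (SE 0.11, adjusted p = 0.0325), a call that ended when any 1 of the 6 gun1-101 arrays was left out (0.0579 to 0.104). The other 3 were at -0.42 to -0.25 and not called. Of these, AT5G52780 was called in 4 of 22 alternatives (limma adjusted p of 0.0194 to 0.0498 in those 4), array weights and quantile normalisation among them. The interaction was positive for all 4, from 0.44 to 0.99, with none called by limma and 3 at an unadjusted p under 0.05. Leaving out both control replicate 1 and lincomycin replicate 3 of Col-0, the interaction was called for CRR42 (1.44, adjusted p = 0.0125) and HCF101 (0.51, adjusted p = 0.0275). It was also called for both without lincomycin replicate 3 of Col-0 alone (0.0346 for CRR42 and 0.0441 for HCF101), for HCF101 without control replicate 1 of Col-0 alone (0.0494), and for both with array weights. With lincomycin, HCF101 was higher in gun1-101 than in Col-0 by 0.54 (SE 0.11, adjusted p = 0.0082), a call that held in all 22 alternatives. CRR42, at 0.75 (adjusted p = 0.12), was called in that comparison without both Col-0 arrays named above (1.02, adjusted p = 0.0165), without lincomycin replicate 3 alone (0.0282) and with array weights. The other 2 were not called there with all arrays and equal weights.

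With all 12 arrays and equal weights, no editing or processing factor was called in any comparison. Of 10 listed genes of plastid RNA editing and processing 5 were measured, CRR21, CRR22, OTP80, OTP84 and OTP85, all for pentatricopeptide repeat proteins that edit plastid transcripts; OTP80 is known for a ribosomal protein transcript and the others for ndh sites. Their differences were -0.29 to 0.02 in gun1-101, with a median of -0.03, and -0.26 to 0.24 in Col-0, with a median of 0.19, and 0 of 5 had an unadjusted p under 0.05 in either. The CRR22 difference between gun1-101 and Col-0 without lincomycin was 0.64 (SE 0.22, adjusted p = 0.345). Leaving out both control replicate 1 and lincomycin replicate 3 of Col-0 changed this for OTP80 and CRR22. OTP80 was then higher with lincomycin in Col-0 by 0.62 (adjusted p = 0.00403), its interaction was -0.80 (adjusted p = 0.00376), and without lincomycin it was higher in gun1-101 than in Col-0 by 0.49 (adjusted p = 0.0155). CRR22 was higher in gun1-101 without lincomycin by 0.78 (adjusted p = 0.0288). With array weights CRR21, CRR22, OTP80 and OTP84 each had at least 1 call, and CRR21 was called between the lincomycin groups without gun1-101 control replicate 3 (adjusted p = 0.022). PGRL1B, of the other route of cyclic flow, was at 0.14 in gun1-101 (SE 0.13, adjusted p = 0.466) and 0.03 in Col-0 (SE 0.13, adjusted p = 0.929). None of 6 plastid sigma factor genes, which direct the plastid polymerase to its promoters, had a probe set of its own.

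The genes whose pattern over the 12 arrays was most like that of NdhU were HEME1 of tetrapyrrole synthesis (Pearson's r = 0.994), the antenna genes LHCB4.2 (0.992) and LHCB4.1 (0.991), the locus AT1G27385 (0.990) and the photosystem I gene PSAE-1 (0.990). All of them had their lowest group mean in Col-0 with lincomycin. Those most like ndhJ were ndhF (0.996), ndhK (0.996), psbM (0.994), ccsA (0.993) and AT3G20362 (0.993). The first 4 are plastid genes, while AT3G20362 is a nuclear locus, with group means of 8.29 in gun1-101 with lincomycin, 11.11 in its controls, 10.11 in lincomycin-grown Col-0 and 11.05 in the Col-0 controls. These coefficients describe 12 arrays in 4 groups, in which the group differences carry most of the spread.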

How the data were processed

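Total RNA was hybridised as biotinylated cRNA to Affymetrix arrays. The deposited log2 values were made by the authors; the submitters' processing notes name RMA and Affymetrix Expression Console 1.3. RMA equalises array distributions, so a shift shared by most transcripts is removed. Of 38408 probe sets, 16722 were paired with 1 gene, 759 with several and 20927 with none. RefSeq's TAIR10.1 table gave current names for 16574. A gene with several probe sets took the brightest. One mean per group was fitted to 16550 genes in 12 arrays with limma 3.58.1 (R 4.3.3, lmFit and eBayes, 8 residual degrees of freedom, two-sided, Benjamini-Hochberg adjusted p under 0.05); the fit was tested on simulated data. Intervals are 95% intervals of the fit for a difference between group means and rest on the spread between replicates. Members and gene lists were chosen with earlier results of these data known. Named were all members, every measured gene of the NDH-related lists, and the 5 genes best correlated with NdhU and with ndhJ. P-values were withheld for all 10 members in comparisons using lincomycin arrays, where the design had withheld those of NdhU and ndhJ only. Alternatives covered the replicate block, normalisation, filters, probe sets, array weights, a background covariate (the median of the 7083 probe sets preceding the first with a listed gene) and leaving arrays out.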

Additional observations from a re-analysis of the deposited data

Results flagged for a closer look

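In 6 genes outside the members, a test of the interaction found that the lincomycin response differed between the genotypes. The response, in log2 units, was lower in gun1-101 than in Col-0 by -0.96 for ndhF (adjusted p = 0.0104), -0.85 for rps15 (adjusted p = 0.0303) and -0.76 for ccsA (adjusted p = 0.0198), all plastid genes. It was higher in gun1-101 by 1.84 for NdhN (adjusted p = 0.00199), 1.49 for AT2G04039 (adjusted p = 0.00207) and 1.11 for NdhL (adjusted p = 0.0034), all nuclear genes. The p-values are limma's, adjusted over all genes. The rps15 call held in 11 of 21 alternatives and that of ccsA in 15 of 21. Those of ndhF, NdhN, AT2G04039 and NdhL held in all 21. The gene lists were written with earlier results of these arrays known.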

How the results depend on the processing

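All 9 plastid ndh genes passed the threshold for lincomycin in gun1-101, and none for genotype without lincomycin, in all 22 alternatives. With lincomycin 6 to 9 of them passed between genotypes. With all 12 arrays and equal weights, 9.51% and 4.45% of all genes were called lower in these lincomycin comparisons. The members were chosen on lincomycin differences in the same arrays. Nothing is therefore read from the member counts of this section that use lincomycin arrays. In Col-0 the count of 1 was 2 without the 25 percent dimmest genes and with the array background covariate, and 1 to 2 with single arrays left out. The interaction count of 5 was 3 with every probe set tested, 9 with array weights, 2 with the covariate, 9 without both control replicate 1 and lincomycin replicate 3 of Col-0, and 2 to 7 with single arrays left out. Without those 2 arrays, NdhU minus the plastid median was -4.39 in Col-0 and 5.31 in the interaction, against -3.90 and 4.84; with single arrays left out it ran from -4.21 to -3.72 and from 4.66 to 5.14. The cause of these shifts was not tested.

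Counts over all genes moved more. Those with every probe set are out of 38408 probe sets and the others here out of 16550 genes, so they are not directly comparable. For Col-0 the 2374 calls were 4286 with every probe set, 4863 with weights, 4787 without the 2 arrays and 1067 in a 6-array fit (1356 to 3377 with single arrays left out). For gun1-101 the 3384 calls were 5789, 5682 and 5141 in the first 3 of these settings (1964 to 4289). With lincomycin the 1585 genotype calls were 2582, 4385 and 4088 (748 to 2464), and without it the 3 calls were 5, 1998 and 2854 (0 to 1054). The 1153 interaction calls were 5536 with weights, 5378 without the 2 arrays and 527 with the covariate (379 to 3876). The interaction uses all groups, so no fit to fewer groups was possible for it.

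Deviations of same-numbered arrays correlated at -0.298 to 0.439 (median 0.06, 7 of 18 pairs over 0.1). Those of different-numbered arrays correlated at -0.586 to 0.426 (median -0.035, 7 of 36 pairs over 0.1). Whether replicate numbers mark paired samples was not tested. With the replicate block the plastid ndh counts stayed at 1, 9, 9, 0 and 5, and the calls over all genes were 2468, 3450, 1669, 1 and 1368, in the order Col-0, gun1-101, genotype with and without lincomycin, interaction.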
